A study of Mus musculus with 14 samples.

Results

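The urea cycle turns ammonia into urea in the liver, and 8 of its genes were followed across 14 hepatocyte libraries. They were chosen by gene symbol, with no measured value in the rule, although earlier results of these data were known. They comprise the 5 cycle enzymes (Cps1, Otc, Ass1, Asl and Arg1), the synthase of the cofactor that switches the cycle on (Nags) and the mitochondrial carriers for ornithine and for aspartate (Slc25a15 and Slc25a13). The table of all genes holds 54446, and the 8 are represented there by 28 of 137767 annotated transcripts. All 8 passed the filter on low values, a mean of at least 1 TPM, in each comparison. TPM, the unit of all levels here, gives a transcript's length-corrected part of the library's total.

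Hepatocytes were purified from C57BL/6 mice, and polyA-selected RNA was sequenced. The study removed SRSF1, an SR protein that binds exons and guides splice site choice, in 2 ways. In the HKO model the 2 HKO libraries at postnatal day 10 (P10) and the 2 at 1 month came from Srsf1 f/f; albCre+/- mice, and the 2 controls at each age from albCre+/- mice, so that the albumin promoter drove Cre in hepatocytes of all 8 libraries while the controls carried no floxed allele. The age field gives 1 month for the older libraries, while their sample names carry a tag of 5wk, and the age field is followed here. In the acute model all mice were Srsf1 f/f and received an AAV8 vector with the hepatocyte-specific TBG promoter at 8 weeks of age. The vector carried iCre for the 3 knockout libraries (acHKO) and GFP for the 3 controls, and hepatocytes were taken 2 weeks later, at 10 weeks. The floxed alleles in the HKO model, and iCre in the acute model, cannot be told apart from the loss of Srsf1. Whether replicates came from separate animals is not in the labels, so p-values measure the spread between these libraries, which may be technical.

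Carbamoyl phosphate synthetase (Cps1) joins ammonia and bicarbonate in the mitochondrion and is inactive without N-acetylglutamate, which Nags makes. Ornithine transcarbamylase (Otc) forms citrulline there, argininosuccinate synthase (Ass1) and lyase (Asl) turn citrulline and aspartate into arginine and fumarate in the cytosol, and arginase (Arg1) releases urea and ornithine. Slc25a15 exchanges ornithine for citrulline across the inner mitochondrial membrane, and Slc25a13 (citrin) exports aspartate. In the liver these genes are expressed mostly by periportal hepatocytes, rise around birth and weaning, and respond to glucagon, glucocorticoids and dietary protein.

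Srsf1 was lower in each knockout library than in each control of the same comparison. It measured 43.6 to 46.4 TPM in controls and 23.4 to 30.0 TPM in HKO at P10, 20.01 to 23.2 and 7.74 to 9.17 TPM at 1 month, and 16.5 to 32.3 and 3.69 to 5.34 TPM in the acute model. The sources used here do not give the deleted exons, so Srsf1 TPM may include transcripts of a deleted allele. The 6 hepatocyte markers summed to 106799 to 111845 TPM in P10 controls and 59054 to 75380 TPM in P10 HKO, with no overlap, 59052 to 76116 and 48855 to 66189 TPM at 1 month, and 37797 to 48906 and 30223 to 46877 TPM in the acute model. Their median relative log2 fold changes were -0.62 at P10 (2 of 6 lower), -0.57 at 1 month (1 of 6 lower) and -0.03 in the acute model (2 of 6 lower). For the 8 urea cycle genes the medians were -0.38, -0.57 and -0.65. Macrophage markers (10 genes) summed to 354 to 373 TPM in P10 controls and 425 to 632 TPM in P10 HKO, 13.4 to 16.1 and 47.3 to 132 TPM at 1 month, and 4.52 to 11.6 and 6.71 to 42.4 TPM in the acute model. Cholangiocyte markers (7 genes) summed higher in HKO without overlap, at 56.9 to 69.2 TPM in controls and 118 to 147 TPM in HKO at P10. At 1 month they summed to 1.59 to 1.93 TPM in controls and 20.04 to 34.3 TPM in HKO, also without overlap. Of these 7, 5 were under 1 TPM in every P10 control and 3 in every P10 HKO library. At 1 month these were 6 in controls and 5 in HKO. Of 3 testable, 2 were called higher at P10 and 1 at 1 month. Of all genes tested 21.1% were higher without overlap at 1 month. Erythroid markers (8 genes) were higher in P10 HKO (486 to 2919 TPM, controls 229 to 385 TPM) and lower in acHKO (8.25 to 12.4 TPM, GFP 30.04 to 47.0 TPM). Of these 8, 6 were under 1 TPM in every GFP library and 6 in every acHKO library. Stellate markers (8 genes) summed higher without overlap at 1 month (7.59 to 8.28 TPM in controls, 12.6 to 35.1 TPM in HKO). Of the stellate genes 6 were under 1 TPM in every 1 month control and 4 in every 1 month HKO library. Of 6 testable, 1 was called higher. B cell markers (5 genes) summed higher without overlap in acHKO (3.19 to 9.54 TPM, GFP 0.156 to 0.999 TPM). Of the B cell genes 4 were under 1 TPM in every acHKO library and 5 in every GFP library, and 1 was testable. Endothelial markers (8 genes) were higher without overlap at P10 (81.8 to 82.0 TPM in controls, 86.7 to 97.5 TPM in HKO). Of all genes tested 62.6% were higher without overlap there. None of these 8 markers passed the limma test at P10, and their median relative log2 fold change was -0.17. Neutrophil (7 genes) and T and NK cell markers (6 genes) summed to at most 1.17 TPM outside P10, and at P10 overlapped between HKO and control. The part of these cell types in the results below was not tested. In bulk samples, fewer cells of a type and less RNA per cell cannot be told apart. HKO replicate 2 at P10 had 74.7 TPM of Xist and 0.144 TPM of Y-linked genes, while the other 13 libraries had at most 0.0147 TPM of Xist and 24.9 to 68.0 TPM of Y-linked genes. P10 results are therefore also given without that library. Sequencing depth cannot be read from TPM and is unknown.

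The 8 genes differed widely in level, as TPM per gene length allow. Ass1 was the most abundant in each of the 14 libraries (756 to 2515 TPM) and Nags the least (11.8 to 26.5 TPM). The 5 enzymes together made up 1974 and 1985 TPM in P10 controls, 4267 and 6152 TPM in 1 month controls, and 3547, 4384 and 4694 TPM in GFP controls. In HKO libraries the sum was 1856 and 1774 TPM at P10 and 2276 and 3378 TPM at 1 month, and in acHKO libraries it was 2463, 2649.7 and 1832 TPM. The knockout libraries were below their controls in all 3 comparisons, with no overlap. The plot of gene TPM by library shows each gene on its own.

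**Figure D1:**
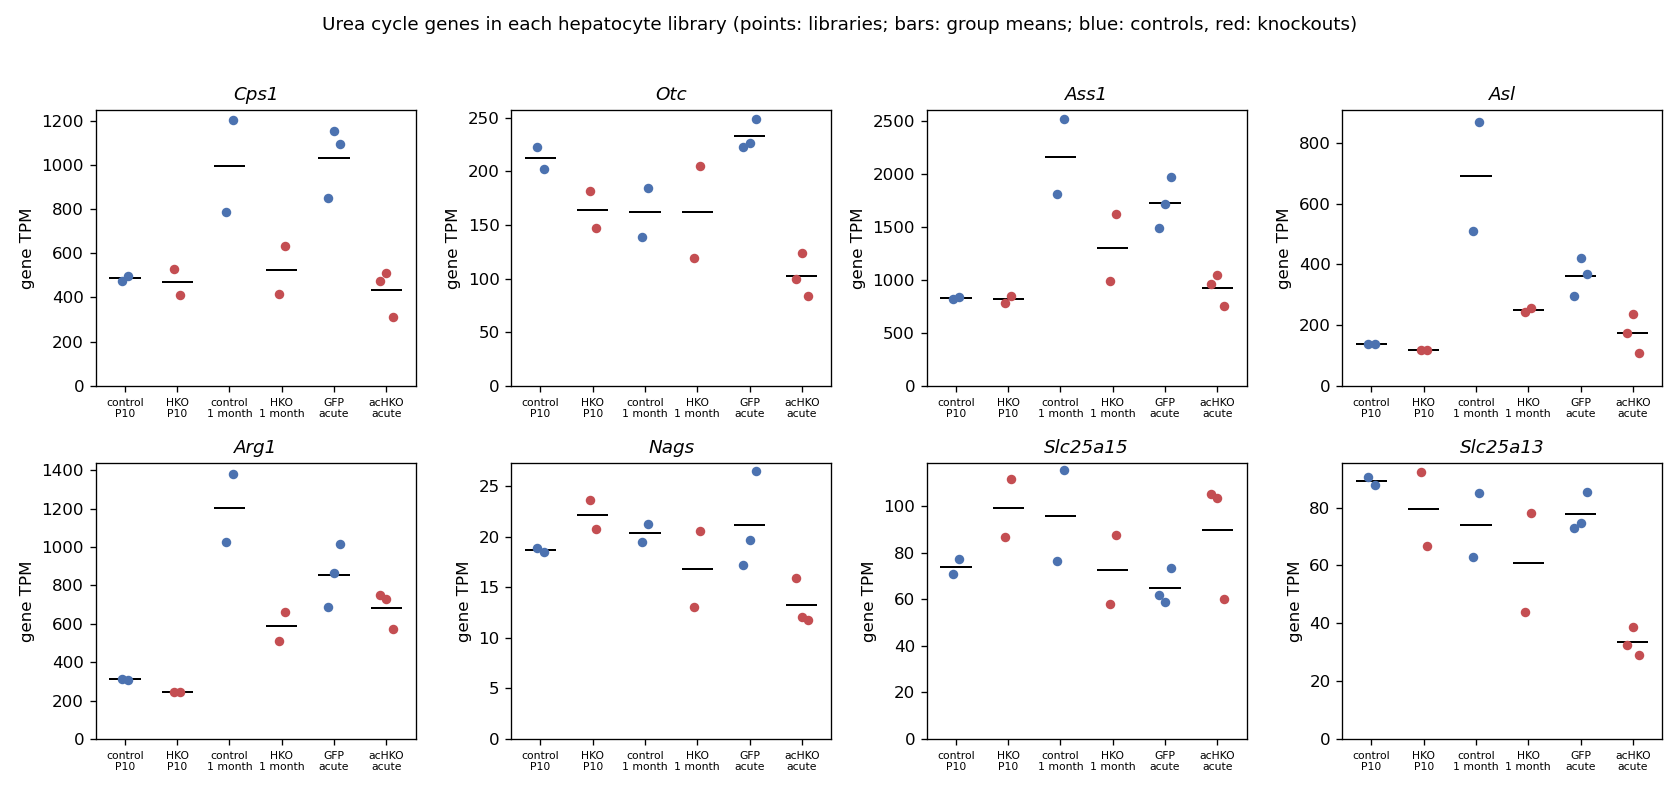
Gene TPM of the 8 urea cycle genes (vertical axes, linear, from 0) in each library (points), by group; bars are group means, blue marks controls and red knockouts. Ass1, Asl, Arg1 and Cps1 are higher in 1 month than in P10 controls, and all 3 acHKO libraries lie below all 3 GFP libraries for Cps1, Otc, Ass1, Asl, Nags and Slc25a13.

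The first comparison asked how the genes changed with age in controls. Cps1, Ass1, Asl and Arg1 rose from P10 to 1 month, while Otc, Nags, Slc25a15 and Slc25a13 did not pass the test. Markers of other cells fell with age: 10 of 10 macrophage, 8 of 8 endothelial, 6 of 6 testable stellate, 6 of 6 testable neutrophil and 5 of 7 testable erythroid genes, with list medians of -2.02 to -4.31, while of 6 hepatocyte markers 2 rose and 3 fell (median -0.09). Their part in the change with age was not tested. Asl rose most, from 138 and 139 TPM to 509 and 870.4 TPM, so that the mean at 1 month was 498% of the mean at P10. The log2 fold change of Asl was 2.26 (SE 0.28, limma adjusted p = 6.03e-05, n = 2 and 2), and 2.69 when set against the median gene. Fold changes are on the log2(TPM + 1) scale, and adjusted p-values, called at 0.05, belong to the unshifted fold change of the deposited TPM. The relative value subtracts the median of all genes tested, because TPM are shares of a total: that median was -0.43 with age in controls, 0.25 for HKO at P10, -0.0013 for HKO at 1 month and -0.36 for acHKO.

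Arg1 rose with age from 315 and 306 TPM to 1025 and 1379 TPM (relative log2 fold change 2.36, limma adjusted p = 8.62e-05, SE 0.25). Ass1 rose from 823 and 839 TPM to 1809 and 2515 TPM (1.79, SE 0.28, adjusted p = 0.00225). Cps1 rose from 476 and 499 TPM to 785 and 1203 TPM (1.42, SE 0.29, adjusted p = 0.0179). Levels at 1 month lay above those at P10 in both libraries for each of these 4 genes, as they did for 13.4% of all genes tested. The Cps1 call was lost without control P10 replicate 1 (adjusted p = 0.0971), control P10 replicate 2 (0.0794) or control 1 month replicate 2 (0.133). Of all genes tested 6.08% were higher and 38.2% lower at 1 month on the deposited TPM (53.6% lower with the replicate number as a block). After median-ratio rescaling, which divides each library by its median ratio to the other libraries, these shares were 26.1% and 19.2%, and the same 4 genes passed together with Nags (relative log2 fold change 0.63, limma adjusted p = 0.0031) and Slc25a15 (0.87, adjusted p = 0.0102).

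Otc was at 222 and 202.2 TPM in P10 controls and 139 and 185 TPM in 1 month controls (log2 fold change -0.40, relative 0.03, limma adjusted p = 0.289). The X-linked Otc thus had the lower TPM at 1 month in both libraries while staying level with the median gene. Slc25a13 was at 90.7 and 87.9 TPM at P10 and 62.8 and 85.0 TPM at 1 month (relative log2 fold change 0.14, adjusted p = 0.473). The proportions of the 5 enzymes differed between the ages. Otc made up 10.2% to 11.3% of their summed TPM in P10 controls and 3.00% to 3.26% in 1 month controls, and Asl 6.993% to 6.997% and 11.9% to 14.1%.

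At P10 no gene of the 8 passed the test between HKO and control, whose spread was estimated together with the 1 month libraries. In each of the 8, limma's unadjusted p was also above 0.05, the smallest being 0.193 for Slc25a15, where 29.7% of all genes had an unadjusted p under 0.05. TPM did not overlap for 5 genes, 3 lower and 2 higher in HKO, where 13.4% of all genes were lower and 62.6% higher without overlap. Arg1 was at 315 and 306 TPM in controls and 246 and 245 TPM in HKO (log2 fold change -0.34, relative -0.59, SE 0.25, limma adjusted p = 0.374). Asl was at 138 and 139 TPM in controls and 119 and 117 TPM in HKO (-0.23, relative -0.48, adjusted p = 0.592). Otc was at 222 and 202.2 TPM in controls and 181 and 147 TPM in HKO (-0.37, relative -0.63, adjusted p = 0.417). These 3 enzymes were lower in both HKO libraries. Nags, at 18.8 and 18.5 TPM in controls, was higher in both HKO libraries, at 23.6 and 20.7 TPM (0.23, relative -0.02, adjusted p = 0.541). Slc25a15 was at 70.8 and 77.1 TPM in controls and higher in HKO, at 86.5 and 112 TPM (0.41, relative 0.15, adjusted p = 0.369).

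The remaining 3 overlapped at P10. Cps1 was at 476 and 499 TPM in controls and 527 and 412 TPM in HKO (relative log2 fold change -0.32, limma adjusted p = 0.902). Ass1 was at 823 and 839 TPM in controls and 783 and 853 TPM in HKO (-0.28, adjusted p = 0.963). Slc25a13 was at 90.7 and 87.9 TPM in controls and 92.2 and 66.9 TPM in HKO (-0.44, adjusted p = 0.715). The median of the 8 relative log2 fold changes was -0.38, where the median of all genes is 0 by construction. Of all genes 10.8% were called higher and 1.87% lower at P10, and after median-ratio rescaling 6.22% and 6.05%. Rescaling added 1 of the 8, Arg1 (-0.63, limma adjusted p = 0.0408). With the P10 libraries alone in the fit Arg1 also passed as lower (-0.59, limma adjusted p = 0.0374). The nearest others in that fit were Asl (0.0833) and Otc (0.0852). It called 4415 genes higher and 592 lower of 12327 tested.

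Without HKO replicate 2, again none of the 8 passed at P10. Relative log2 fold changes were then -0.63 for Arg1, -0.52 for Otc, -0.52 for Asl, -0.38 for Ass1, -0.25 for Slc25a13 and -0.18 for Cps1. Nags (0.03) and Slc25a15 (-0.07) changed sign. In the authors' deposited table for P10, whose test was made on normalized counts, 6 of the 8 were lower at an adjusted p under 0.05, against 11.8% of genes in that table. These were Arg1 (-0.65, adjusted p = 2.1e-07), Otc (-0.68, adjusted p = 1.3e-05), Asl (-0.55, adjusted p = 1.58e-05), Slc25a13 (-0.48), Cps1 (-0.37) and Ass1 (-0.33), while Nags (-0.07) and Slc25a15 (0.12) were not called there.

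At 1 month Asl and Arg1, which catalyse the last steps of the cycle, fell in HKO hepatocytes. Asl was at 509 and 870.4 TPM in controls and 244 and 256 TPM in HKO, so the HKO mean was 36.2% of the control mean (relative log2 fold change -1.41, limma adjusted p = 0.00993, SE 0.28). Arg1 was at 1025 and 1379 TPM in controls and 509.6 and 663 TPM in HKO, 48.8% of the control mean (-1.03, SE 0.25, adjusted p = 0.029). Both genes were lower in both HKO libraries, and both remained above their P10 levels. Of all genes 1.99% were called lower and 4.87% higher, and the median of the 8 relative values was -0.57.

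Cps1 and Ass1 did not pass at 1 month, although their TPM did not overlap. With Asl and Arg1 this made 4 of the 8 lower without overlap, where 15.6% of all genes were. Cps1 was at 785 and 1203 TPM in controls and 413 and 634 TPM in HKO (relative log2 fold change -0.92, limma adjusted p = 0.0961, SE 0.29). Ass1 was at 1809 and 2515 TPM in controls and 989.6 and 1620.5 TPM in HKO (-0.75, SE 0.28, adjusted p = 0.152). For each enzyme the lowest control was above the highest HKO library. After median-ratio rescaling 6.85% of all genes were higher and 7.83% lower, and 4 of the 8 were lower: Asl (limma adjusted p = 0.00861), Arg1 (0.00499), Cps1 (0.0252) and Ass1 (0.0327). In the authors' deposited table for 1 month the same 4 were lower, against 4.53% of genes: Asl (-1.52, adjusted p = 1.02e-05), Arg1 (-1.12, adjusted p = 5.42e-05), Cps1 (-1.02, adjusted p = 0.00212) and Ass1 (-0.83, adjusted p = 0.013).

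The other 4 genes overlapped between the groups at 1 month. Otc was at 139 and 185 TPM in controls and 119 and 204.6 TPM in HKO (relative log2 fold change -0.03, limma adjusted p = 0.9751). Nags was at 19.5 and 21.3 TPM in controls and 13.1 and 20.6 TPM in HKO (-0.29, adjusted p = 0.598). Slc25a15 was at 76.3 and 115 TPM in controls and 57.8 and 87.5 TPM in HKO (-0.39, adjusted p = 0.546). Replicate 1 was the lower of the 2 libraries for all 8 genes in HKO, and likewise in the controls. Slc25a13 was at 62.8 and 85.0 TPM in controls and 43.9 and 78.1 TPM in HKO (-0.31, adjusted p = 0.674).

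Single libraries decided calls at 1 month, where each group has 2. Without HKO replicate 1 neither Asl (limma adjusted p = 0.0528) nor Arg1 (0.0717) passed, and the same held without control replicate 2 (0.0947 and 0.224). The Arg1 call was also lost without control P10 replicate 1 (0.0651) or replicate 2 (0.0653), which share the fit. Without HKO replicate 2 all 4 of Asl, Arg1, Cps1 (0.0485) and Ass1 (0.0345) passed.

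In the acute model 6 of the 8 fell on the deposited TPM: Cps1, Otc, Ass1, Asl, Nags and Slc25a13. The calls of Ass1, Asl and Nags depended on how libraries were scaled, as given below. Cps1 was at 849.7, 1154 and 1092 TPM in GFP libraries and 476, 512 and 311 TPM in acHKO libraries, 42.0% of the GFP mean (log2 fold change -1.27, relative -0.91, SE 0.24, limma adjusted p = 0.000651). Otc was at 223, 226 and 249 TPM in GFP libraries and 99.6, 124 and 83.8 TPM in acHKO libraries, 44.0% of the GFP mean (-1.19, relative -0.83, SE 0.21, adjusted p = 0.000354). Slc25a13 was at 72.9, 74.8 and 85.3 TPM in GFP libraries and 32.7, 38.9 and 29.1 TPM in acHKO libraries, 43.2% of the GFP mean (-1.19, relative -0.83, SE 0.20, adjusted p = 0.000232). All 3 acHKO libraries were below all 3 GFP libraries for these genes, which act in or at the mitochondrion, and for 47.1% of all genes.

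The cytosolic enzymes Ass1 and Asl fell as well. Ass1 was at 1492, 1719.9 and 1969.7 TPM in GFP libraries and 960.2, 1049 and 756 TPM in acHKO libraries (log2 fold change -0.91, relative -0.55, SE 0.23, limma adjusted p = 0.00517). Asl was at 297, 420.2 and 369.8 TPM in GFP libraries and 175, 236 and 109 TPM in acHKO libraries (-1.11, relative -0.75, SE 0.26, adjusted p = 0.00307). Neither overlapped between the groups. Nags, the cofactor synthase, was at 17.2, 19.7 and 26.5 TPM in GFP libraries and 15.9, 12.0 and 11.8 TPM in acHKO libraries (-0.63, relative -0.26, SE 0.21, adjusted p = 0.0263).

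Arg1 and Slc25a15 did not pass in the acute model. Arg1 was at 686, 864 and 1014 TPM in GFP libraries and 752, 728 and 571 TPM in acHKO libraries (log2 fold change -0.31, relative 0.05, SE 0.23, limma adjusted p = 0.271). Slc25a15 was at 61.8, 58.9 and 73.3 TPM in GFP libraries and 105, 103 and 60.2 TPM in acHKO libraries (0.43, relative 0.79, SE 0.23, adjusted p = 0.141). The groups overlapped for both genes, for Slc25a15 through acHKO replicate 3 alone. Without that library Slc25a15 passed as higher (relative 1.02, limma adjusted p = 0.016). Arg1 made up more of the 5 enzymes, 27.5% to 31.2% of their summed TPM in acHKO libraries against 19.3% to 21.6% with GFP.

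Many genes fell in this comparison, so the count of 6 of 8 has to be read against 34.8% of all genes called lower and 5.93% higher on the deposited TPM. After median-ratio rescaling these were 27.5% and 14.1%. Cps1, Otc, Ass1, Nags and Slc25a13 were then lower, Asl missed the threshold (relative log2 fold change -0.70, limma adjusted p = 0.0584) and Slc25a15 was higher (0.83, adjusted p = 0.0436). Without the mitochondrially encoded genes in the total the balance turned, with 10.8% of all genes higher and 7.84% lower. Ass1 (limma adjusted p = 0.132), Asl (0.0738) and Nags (0.564) then lost their calls, Cps1 (0.0176), Otc (0.0113) and Slc25a13 (0.00979) were still lower, and Slc25a15 was higher (0.0102). In the authors' deposited table for the acute model 5 of the 8 were lower, against 16.1% of genes, and 1 was higher, against 16.4%. The lower ones were Cps1 (-0.96, adjusted p = 0.000134), Otc (-0.90), Slc25a13 (-0.92), Asl (-0.77) and Ass1 (-0.61), and Slc25a15 was higher (0.75, adjusted p = 0.00753). Nags (-0.36, adjusted p = 0.0636) and Arg1 (-0.01, adjusted p = 0.959) were not called there. The Nags call on TPM was lost without GFP replicate 2 or 3 or acHKO replicate 2 or 3 (limma adjusted p = 0.056, 0.0842, 0.0807 and 0.0757).

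**Figure D2:**
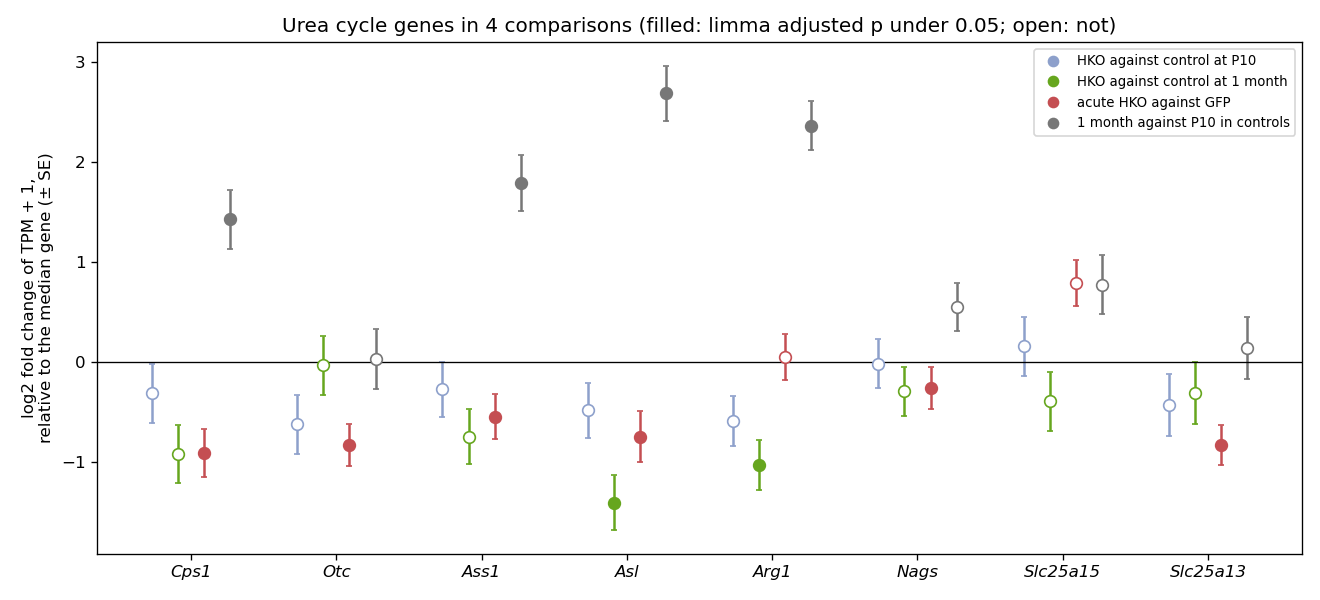
Log2 fold change of TPM + 1 relative to the median gene (vertical axis) with its standard error for the 8 genes (horizontal axis) in 4 comparisons (colours); filled points have a limma adjusted p under 0.05. Asl and Arg1 are filled at 1 month, and all but Arg1 and Slc25a15 in the acute model, where Arg1 sits at 0.05 and Slc25a15 at 0.79.

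Whether the knockout effects themselves differed was tested next. The P10 and 1 month effects were compared within the 8 libraries of the HKO model, and none of the 8 genes passed, where 2.80% of all genes did. At an unadjusted p under 0.05, which 16.4% of all genes had, limma gave 1, Asl (difference -1.18, relative -0.93, SE 0.39, adjusted p = 0.157). The acute and 1 month effects, which share no library, were compared over all 14. None of the 8 passed, where 6.83% of all genes did. An unadjusted p under 0.05 was found for 3 of the 8 and for 25.2% of all genes. These were Otc (difference -1.16, relative -0.83, SE 0.35, limma adjusted p = 0.0588), Slc25a13 (-0.88, relative -0.55, adjusted p = 0.141) and Arg1 (0.72, relative 1.05, adjusted p = 0.175). After median-ratio rescaling Arg1 (1.137, adjusted p = 0.00525) and Slc25a15 (1.24, adjusted p = 0.0403) passed as higher in the acute model than at 1 month, where 13.5% of all genes passed in either direction. Otc passed under other scalings: over coding genes alone (-0.81, limma adjusted p = 0.0328) and without mitochondrially encoded genes (-0.77, adjusted p = 0.0148). Library names in the labels carry 1 index sequence in the HKO model and 2 in the acute model, so age, model and library preparation cannot be told apart in this difference.

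The order of the 6 groups by mean TPM differed from gene to gene. Cps1 ran from acHKO (433 ± 107 TPM, SD, n = 3) through P10 HKO, P10 control and 1 month HKO to 1 month control (994 ± 295, n = 2) and GFP (1032 ± 161, n = 3), and the only neighbours without overlap were the 1 month groups. Asl ran from P10 HKO (118 ± 1.34, n = 2) through P10 control, acHKO, 1 month HKO and GFP to 1 month control (689.7 ± 256, n = 2), and of neighbours in this order only P10 control and acHKO overlapped. Arg1 ran from P10 HKO through P10 control, 1 month HKO, acHKO and GFP to 1 month control, and its neighbours overlapped from 1 month HKO to GFP. In Ass1 all neighbours overlapped, from P10 HKO (818 ± 49.5) to 1 month control (2162 ± 499.7). Otc was lowest in acHKO (102 ± 20.2) and highest in GFP (223 to 249 TPM), and the neighbours that overlapped were 1 month control with 1 month HKO and 1 month HKO with P10 HKO. Slc25a13 was lowest in acHKO (33.5 ± 4.93), apart from the next group, 1 month HKO, and all further neighbours overlapped. In Nags only P10 control and 1 month control, neighbours in the order, did not overlap, and in Slc25a15 all neighbours overlapped.

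Transcript shares were examined because SRSF1 acts on splicing. Calls needed a diffSplice (limma) adjusted p under 0.05 together with a shift of 10 percentage points or more in the mean share of any transcript. At P10 none of the 3 testable genes of the 8 (Asl, Nags and Slc25a13) was called, nor were the same 3 at 1 month, and no unadjusted p was under 0.05. Of all genes tested 0.586% were called at P10 and 0.234% at 1 month. Of 4 testable genes in the acute model 1 was called, Asl (adjusted p = 3.84e-05), where 35.5% of all genes were. Nags (adjusted p = 0.998) and Slc25a13 (0.0956) were not called, and Slc25a15 passed the test (0.00292) with a change of 6.94 points. Cps1 has 1 annotated transcript, and Otc, Ass1 and Arg1 had 1 abundant transcript each.

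Asl lies on chromosome 5, 130011258 to 130029247, minus strand (GRCm38), and has 8 annotated transcripts. Asl-202 (18 exons), Asl-205 (17 exons) and the scarcely detected Asl-203 carry a coding region of 1392 bases, whereas Asl-201 (9 exons) is annotated from within the gene with 799 coding bases. The third exon of Asl-201, 130013401 to 130013533, begins 18 bases earlier than the same exon of Asl-202, which covers 130013401 to 130013515. Those 18 bases are coding and add 6 codons in frame. The sequences below, 5′ to 3′ on the transcript from the GENCODE M21 annotation of GRCm38, show 40 bases of the exon before and 40 of the shared exon, with the added bases in capitals. They are shown because they are the only exon sequence by which the spliced Asl-201 differs from Asl-202 inside this stretch.
Asl-201: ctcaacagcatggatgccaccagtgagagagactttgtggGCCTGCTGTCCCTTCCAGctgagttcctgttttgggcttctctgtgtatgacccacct
Asl-202: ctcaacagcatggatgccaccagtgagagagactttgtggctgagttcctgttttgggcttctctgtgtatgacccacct

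Asl-201 rose as a share of Asl in the acute model and Asl-202 and Asl-206 fell. Asl-201 was at 3.94%, 5.28% and 5.34% of Asl TPM with GFP and 29.4%, 26.4% and 36.0% with iCre, a difference of 25.8 points (diffSplice adjusted p over transcripts = 1.48e-05). Asl-202 was at 38.6%, 38.7% and 39.8% with GFP and 23.6%, 27.2% and 17.8% with iCre (adjusted p = 0.0115). Asl-206, a partial coding transcript of 923 bases, was at 32.2%, 31.8% and 27.2% with GFP and 16.8%, 19.3% and 13.9% with iCre (adjusted p = 0.00759). The groups did not overlap for any of the 3, and the call held without each of the 6 libraries in turn (share differences of 23.1 to 27.9 points). Asl-205 stayed at 20.9% ± 0.873 with GFP and 21.6% ± 1.46 with iCre (SD, n = 3 each).

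The GFP controls differed from the other controls in this share. Asl-201 was at 13.9% and 17.7% in P10 controls and 27.5% and 23.2% in 1 month controls, and at 14.1% and 24.0% in P10 HKO and 30.9% and 18.7% in 1 month HKO. The acHKO shares thus lay above the GFP shares and, for 2 of the 3 libraries, above both 1 month controls, while HKO and control libraries overlapped at both ages. The estimate uses all reads of the gene, since the other exons of Asl-201 are shared with Asl-202 and Asl-205, and not only reads over the added bases. The abundant transcripts with the full coding region, Asl-202 plus Asl-205, came to 179, 246 and 224 TPM in GFP libraries. In acHKO libraries they came to 78.6, 112 and 44.8 TPM, with no overlap. In 1 month controls they measured 245 and 437 TPM and in 1 month HKO 116 and 139.7 TPM, and at P10 85.4 and 78.7 TPM and 76.3 and 68.5 TPM.

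**Figure D3:**
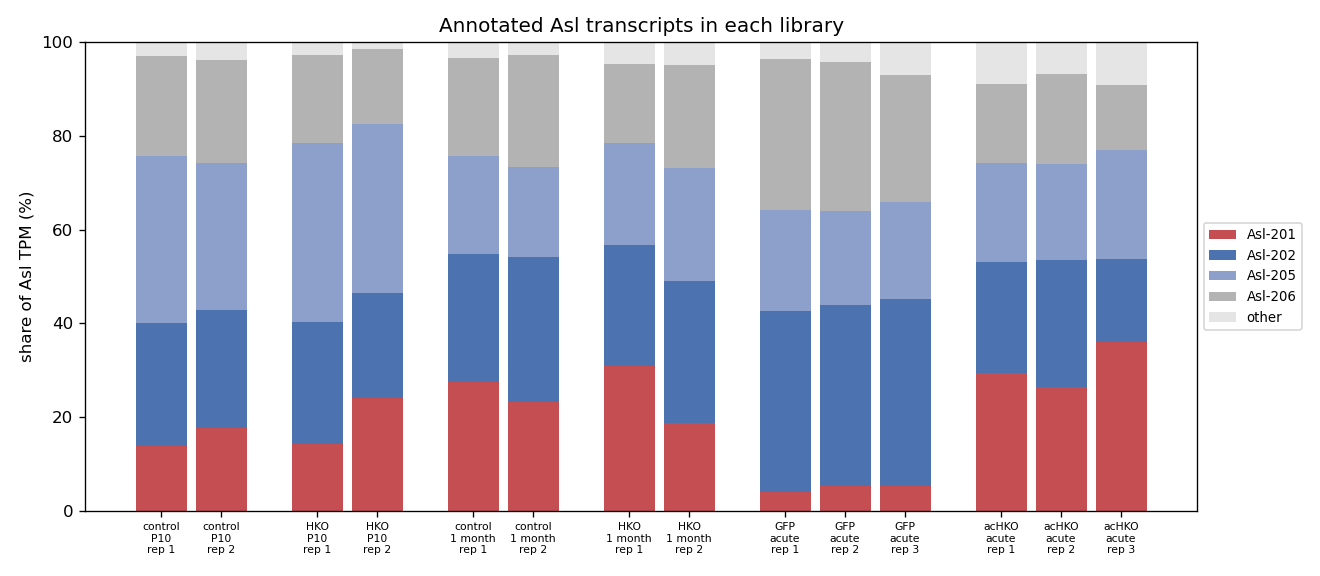
Share of Asl TPM (vertical axis, percent) held by 4 annotated transcripts and by the others together, in each of the 14 libraries (bars). Asl-201 (red) takes 3.94% to 5.34% in the GFP libraries and 26.4% to 36.0% in the acHKO libraries.

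Transcripts annotated as retained intron keep an intron and carry no annotated coding region. They are annotated for 5 of the 8 genes: Slc25a15, Ass1, Asl, Arg1 and Slc25a13. In the acute model their share of the gene was higher with iCre, with no overlap, for Slc25a15, Ass1 and Asl, where 38.8% of 3239 genes with such a transcript showed the same. The median share over those genes was 3.86% with GFP and 5.70% with iCre. Ass1 went from 0.363% to 0.654% with GFP to 3.78% to 4.58% with iCre, and Asl from 0.156% to 0.339% to 0.492% to 0.890%. Most of the Ass1 share with iCre lay on Ass1-203 (mean 3.06%), a transcript of 462 bases at 31518490 to 31520531. Ass1-203 also ran from 0.901% to 2.06% within the 1 month controls. Read coverage along the genes was not examined. Arg1 (0.703% to 2.60% and 1.95% to 3.34%) and Slc25a13 (at most 0.432%) overlapped. These shares were compared by range and not tested.

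Slc25a15, the ornithine carrier, had the highest share in acHKO libraries. Its only retained-intron transcript made up 0.639%, 0.926% and 1.47% of the gene with GFP and 8.99%, 9.17% and 5.68% with iCre. At 1 month it made up 2.62% and 1.137% in controls and 6.34% and 5.11% in HKO. At P10 it made up 0.925% and 1.43% in controls and 1.64% and 2.42% in HKO. The share was higher in each knockout library than in each control of its comparison, in all 3. At 1 month 2 of the 5 genes, Slc25a15 and Asl, were higher without overlap, where 16.1% of all such genes were, and at P10 1 of the 5, where 21.1% were. Arg1 (means 1.08% in controls and 0.686% in HKO) and Slc25a13 (0.323% and 0.0957%) were lower without overlap at P10. How many of all such genes were lower without overlap was not counted. With protein-coding transcripts alone, a setting chosen after these shares were seen, the relative log2 fold change of Slc25a15 in the acute model was 0.74 (limma adjusted p = 0.201), against 0.79 with all its transcripts.

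Slc25a15 lies on chromosome 8, 22375551 to 22398597, minus strand (GRCm38). The intron kept in that transcript covers 22381008 to 22383206, 2199 bases. The transcript, at 22376697 to 22398544, also has other ends than the coding transcript, at 22375551 to 22398597. Its share is estimated from all reads of the gene, and not only from reads over the intron. The intron borders are given because the transcript is annotated as keeping this intron. They are shown with 40 exon bases in lower case and 40 intron bases in capitals, 5′ to 3′ on the transcript.
Intron start: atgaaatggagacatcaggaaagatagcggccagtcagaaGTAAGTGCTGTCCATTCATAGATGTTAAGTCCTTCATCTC
Intron end: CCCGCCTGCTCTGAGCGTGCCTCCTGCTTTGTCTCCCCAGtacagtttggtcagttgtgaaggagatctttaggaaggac

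**Figure D4:**
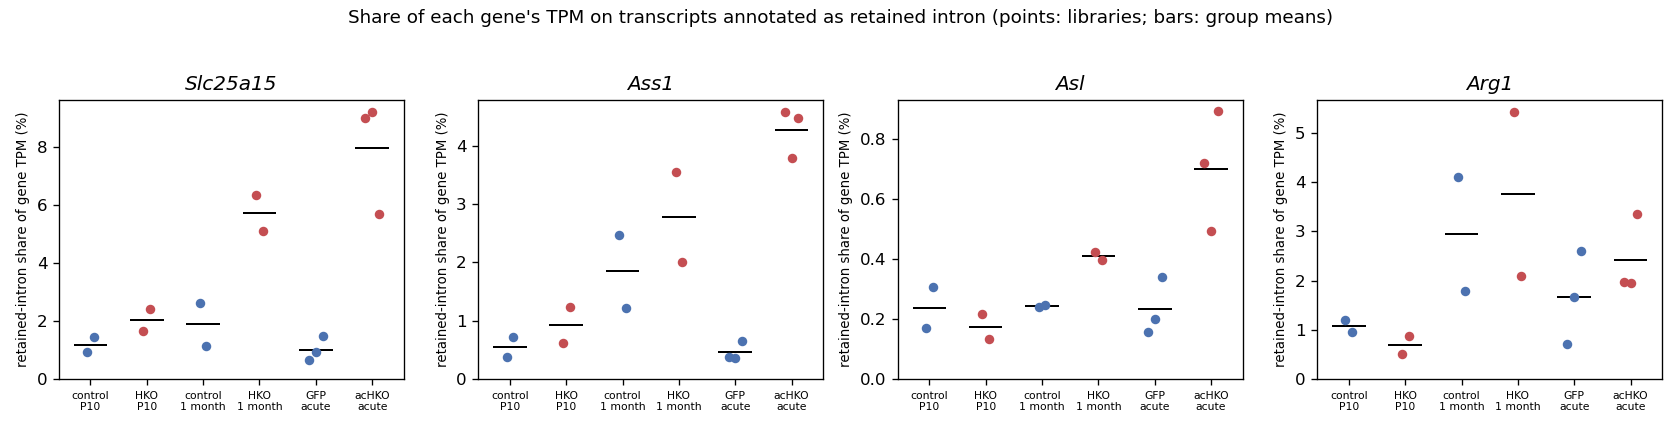
Share of gene TPM (vertical axes, percent, from 0) on transcripts annotated as retained intron, per library (points) with group means (bars), for 4 genes; blue marks controls and red knockouts. Slc25a15 reaches 5.68% to 9.17% in acHKO libraries and at most 1.47% with GFP, while Arg1 overlaps between GFP and acHKO.

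The remaining 6 genes lie on other chromosomes of GRCm38. Cps1 is on chromosome 1 (67123026 to 67231259), Otc on X (10252305 to 10321024), Ass1 on 2 (31470207 to 31520672), Arg1 on 10 (24915221 to 24927484), Nags on 11 (102145513 to 102149477) and Slc25a13 on 6 (6041218 to 6217173). In Slc25a13 the coding transcript of 3121 bases, the less abundant of a pair that each code for 2028 bases, made up 19.1% and 19.6% in 1 month controls and 26.5% and 33.1% in 1 month HKO (diffSplice adjusted p = 0.961). Shares of the 3 Nags transcripts differed by at most 2.03 points between group means in each knockout comparison.

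Genes around the cycle were grouped in 8 lists. Their counts are to be read against all genes tested, of which 10.8% were higher and 1.87% lower at P10. At 1 month 4.87% were higher and 1.99% lower, and in the acute model 5.93% and 34.8%. Median-ratio rescaling made these shares 6.22% and 6.05%, 6.85% and 7.83%, and 14.1% and 27.5%. Genes that supply ammonia or bicarbonate were 2 higher and 1 lower of 16 tested at P10, 1 lower of 16 at 1 month, and 2 higher and 4 lower of 15 in the acute model, with median relative log2 fold changes of -0.42, -0.32 and 0.05. After median-ratio rescaling they were 2 higher and 3 lower, 5 lower, and 4 higher and 2 lower. Gpt2, a mitochondrial alanine aminotransferase, rose at P10 from 7.89 and 7.85 TPM to 92.7 and 115 TPM (relative log2 fold change 3.30, limma adjusted p = 1.54e-05), together with Gpt (1.201, adjusted p = 0.0163), its cytosolic counterpart. Serine dehydratase (Sds) fell there (-2.10, adjusted p = 0.0242). Histidine ammonia-lyase (Hal) fell at 1 month (-1.18, adjusted p = 0.0353) and in the acute model (-0.52, adjusted p = 0.0056). Glutamate dehydrogenase (Glud1), which releases ammonia from glutamate, fell in the acute model from 266, 336 and 357 TPM to 176, 151 and 121 TPM (-0.74, adjusted p = 0.000936). There the amino acid transporter Slc38a4 fell (-0.42, adjusted p = 0.00785), while Gpt rose (1.24, adjusted p = 0.00279) and so did Sdsl (1.12, adjusted p = 0.0481).

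Genes of glutamine synthesis and perivenous ammonia capture were 1 higher of 5 at P10, 2 higher of 5 at 1 month, and 1 higher and 3 lower of 4 in the acute model (medians 0.16, 0.42 and -0.37). The ammonium transporter Rhbg was higher in all 3 knockout comparisons (relative log2 fold changes 1.31, 1.79 and 1.02, limma adjusted p = 0.00642, 0.00391 and 0.016). It measured 0.615 to 0.622 TPM in 1 month controls and 2.86 and 7.08 TPM in 1 month HKO. The neutral amino acid transporter Slc1a4 rose at 1 month (1.39, adjusted p = 0.00299). With iCre the glutamate transporter Slc1a2 (-0.79, adjusted p = 0.00137), ornithine aminotransferase Oat (-0.46, adjusted p = 0.0131) and glutamine synthetase Glul (-0.27, adjusted p = 0.021) fell. After median-ratio rescaling 1 was higher and 1 lower of 4 in the acute model.

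Genes that use arginine, ornithine and polyamines beside the cycle were 6 higher and 1 lower of 16 at P10, 1 higher of 16 at 1 month, and 1 higher and 6 lower of 14 in the acute model (medians 0.24, -0.09 and -0.03). After median-ratio rescaling these were 2 and 2, 2 and 1, and 1 and 4. In the acute model 34.8% of all genes were lower, and 27.5% after rescaling. At P10 Aldh18a1, which starts ornithine synthesis from glutamate (relative log2 fold change 1.00, limma adjusted p = 0.000606), the polyamine acetylase Sat1 (0.85), Amd1 (0.71) and ornithine decarboxylase Odc1 (0.82) rose, and Prodh2 fell (-1.11). Odc1 fell in the acute model, from 25.0, 33.1 and 33.8 TPM to 15.6, 16.8 and 10.5 TPM (-0.70, adjusted p = 0.00124), as did Prodh2 (-1.61), spermidine synthase Srm (-0.57) and Azin1 (-0.41), while Prodh rose (1.02). Gatm, which makes guanidinoacetate from arginine, rose at 1 month (1.04, adjusted p = 0.0429).

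Genes of the aspartate, fumarate and malate shuttle were 1 higher of 12 at P10 (Adss, relative log2 fold change 0.74), none of 12 at 1 month, and 1 higher and 2 lower of 12 in the acute model (medians -0.03, 0.02 and 0.08). After median-ratio rescaling the acute count was 3 higher. The mitochondrial glutamate carrier Slc25a22 rose there from 44.6, 38.8 and 64.8 TPM to 115, 116 and 95.1 TPM (1.51, limma adjusted p = 0.000728), and Mdh1 (-0.27) and Fh1 (-0.27) fell. Pyrimidine synthesis genes, which use carbamoyl phosphate made in the cytosol, were 2 higher of 6 at P10 (Ctps at 1.02 and Cad at 0.43), none of 6 at 1 month and 3 lower of 6 in the acute model (Cmpk1 at -0.47, Ctps at -0.30 and Cad at -0.17), with medians of 0.06, 0.20 and -0.02. The acute count compares with 34.8% of all genes lower, and 27.5% after median-ratio rescaling.

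Regulators of urea cycle genes were 2 higher of 19 at P10, 1 lower of 19 at 1 month and 7 lower of 19 in the acute model (medians -0.23, -0.11 and -0.04). After median-ratio rescaling they were 2 higher and 4 lower, 2 lower, and 3 higher and 7 lower. The acute counts compare with 34.8% of all genes lower, and 27.5% after rescaling. Hnf4a, a nuclear receptor that activates hepatocyte genes, fell at 1 month from 119 and 145 TPM to 39.8 and 79.6 TPM (relative log2 fold change -1.21, limma adjusted p = 0.0473, SE 0.32). Hnf4a is also among the 6 hepatocyte markers, and is the 1 of them called lower at 1 month. After iCre Hnf4a fell from 119.6, 155 and 114 TPM to 44.8, 50.9 and 30.2 TPM (-1.26, adjusted p = 4.59e-05). Foxa2 (-1.55, adjusted p = 3.39e-06), Foxa1 (-1.26, adjusted p = 1.6e-05) and Crebl2 (-0.73, adjusted p = 0.000403) fell there as well. The acute and 1 month effects differed for Foxa2 (relative difference -1.58, adjusted p = 0.000895) and Foxa1 (-1.24, adjusted p = 0.0017). At P10 Cebpb (0.95, adjusted p = 0.0248) and Atf4 (0.68, adjusted p = 0.0346), which respond to amino acid stress, rose.

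Periportal genes outside the cycle were 4 higher and 1 lower of 15 at P10, 2 higher and 1 lower of 15 at 1 month, and 3 higher and 6 lower of 14 in the acute model (medians -0.37, -0.35 and -0.14). After median-ratio rescaling they were 2 and 4, 2 and 2, and 4 and 4. Of all genes 34.8% were lower in the acute model, and 27.5% after rescaling. With iCre Etnppl fell from 81.4, 79.1 and 109 TPM to 16.1, 23.9 and 10.1 TPM (relative log2 fold change -2.06, limma adjusted p = 3e-06), as did Ctsc (-1.82) and Uroc1 (-1.11). Aldh1b1 rose there (1.55, adjusted p = 0.00113) and at 1 month (2.08, adjusted p = 0.000588), and so did the epithelial cadherin Cdh1 (1.42 and 1.31, adjusted p = 0.00243 and 0.0203). At P10 Pigr (1.51), Cdh1 (1.12), Sox9 (0.47) and Hsd17b13 (0.60) rose and Sds fell. Sox9 is also among the cholangiocyte markers, whose part in this list was not tested. Pericentral genes, from the opposite side of the lobule, were 1 higher and 2 lower of 12 at P10, 1 and 1 of 12 at 1 month, and 3 and 5 of 10 in the acute model (medians -0.08, 0.37 and -0.22). After median-ratio rescaling the acute counts were 3 and 1. Cyp2e1, a pericentral cytochrome P450, fell at P10 (-1.58, limma adjusted p = 0.0291) and at 1 month (-1.31, adjusted p = 0.0439).

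Without HKO replicate 2 at P10 fewer of these genes passed there. The counts were then 1 higher and 1 lower for ammonia supply, 1 higher for glutamine synthesis, 1 higher for arginine and polyamines, none for the shuttle, 1 higher for pyrimidines, none for the regulators, 2 higher and 1 lower for the periportal genes and 1 higher for the pericentral genes. Macrophage markers called higher were 1 of 10 at P10, 7 of 10 at 1 month and 5 of 5 testable in the acute model. Their part in the list counts was not tested.

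The genes whose profiles lay closest to that of the urea cycle genes were sought over the 14 libraries. Each profile was the log2(TPM + 1) centred on its mean, and likeness was the root mean square difference from the mean profile of the 8. Among 5959 genes the closest were Map1lc3a (0.112), Dnase2b (0.114), Bcas3 (0.155), Man1a (0.165) and Tspan12 (0.167). Of the 8 themselves, Ass1 (0.209) and Cps1 (0.219) lay nearest to their common profile and Arg1 (0.564) and Asl (0.529) farthest. This is a description of levels in libraries that share groups and scaling.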

How the data were processed

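The authors deposited TPM per transcript for 14 libraries, which were estimated with kallisto 0.46.0 after bcl2fastq 2.17.1.14 on GRCm38 (mm10), per the submitters' processing notes. They also deposited 3 gene tables which, per the file headers, hold a mean normalized count (a signal value), a log2 fold change, its standard error, a test score, a p-value and an adjusted p-value. DESeq2 is named in the submitters' notes with no version. The steps from transcripts to genes are not given in the sources used here.

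Gene TPM were summed over transcripts. limma 3.58.1 in R 4.3.3 was run on log2(TPM + 1) (trend, two-sided, genes whose mean reached 1 TPM, Benjamini-Hochberg over all genes, threshold 0.05). P10 and 1 month shared a fit of 8 libraries (4 residual degrees of freedom), the acute model had its own 6 (4) and the difference between models used all 14 (8). Transcript usage was tested on transcripts with at least 1 TPM and 5% of their gene. Retained-intron shares were taken for genes with at least 5 TPM. Scripts were tested on simulated data. Depth is unknown from TPM.

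The members and the 17 lists were chosen with earlier results of these data known. Named are all 8 genes, Srsf1, of each list up to 4 called genes with the smallest p and those called against most of their list, and the 5 genes closest in profile (mean of at least 5 TPM). Sex-linked genes served to check labels. Of the gene identifiers 53229 matched GENCODE M21 with version, among them the 8. Alternatives covered pseudocounts, filters, scalings, the fit, a replicate block and leaving out libraries.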

Additional observations from a re-analysis of the deposited data

How the results depend on the processing

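Of the relative log2 fold changes of the 8 genes, 802 values under alternatives kept their direction and side of the threshold, 26 gained a call, 25 lost one and 51 changed sign, none of these for a gene called on the deposited TPM. Each cause was not tested. Counts of genes called at P10, 1488, were 932 with a pseudocount of 0.1 TPM, 2236 without a filter, 805 over genes averaging 5 TPM or more, 3582 without mitochondrially encoded genes, 5007 with the libraries of that age alone and 562 to 3231 without 1 library each. Median-ratio rescaling and that age alone each called 1 of the 8 as lower. At 1 month (805 genes, 2 of the 8) a pseudocount of 5 TPM gave 503 and 1, no filter 391 and 0, median-ratio rescaling 1695 and 4, no mitochondrially encoded genes 2856 genes, that age alone 1 of the 8, and leaving out 1 library 613 to 1344 genes and 0 to 4 of the 8. The acute count, 4058, was 2658 over genes averaging 5 TPM or more and 1983 without mitochondrially encoded genes, where 3 of the 8 were lower and 1 higher. Median-ratio rescaling gave 1 higher and leaving out 1 library 0 to 1. With age, 5194 became 2634 over genes averaging 5 TPM or more and 3055 to 6822 without 1 library. The difference between 1 month and P10 effects, 329 genes, became 529 with median-ratio rescaling, 715 with coding genes, 607 with protein-coding transcripts and 203 to 1688 without 1 library (0 to 1 of the 8). The difference between acute and 1 month effects, 766 genes, became 464 over genes averaging 5 TPM or more, 1485 with median-ratio rescaling (2 of the 8 higher), 1164 without mitochondrially encoded genes and 365 to 2127 without 1 library (0 to 2 of the 8 lower). Otc alone was lower with coding genes, without mitochondrially encoded genes and with protein-coding transcripts, 1 of the 8 in each. Otc also passed there without HKO 1 month replicate 1 or acHKO replicate 2, and Slc25a13 without the former. Changed transcript usage, 25 genes at P10, became 61 with lower transcript limits and 8 to 51 without 1 library. At 1 month 10 became 41, 17 with a pseudocount of 0.1 TPM and 1 to 23. A limit of 5 points gave 2 of the 8 in the acute model.

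With a replicate block the counts were 2936 genes at P10, 1503 at 1 month with 4 of the 8 lower (Cps1 and Ass1 added), and 981 for the difference between 1 month and P10 with 1 lower (Asl, limma adjusted p = 0.03). With age 2 of the 8, Otc (-0.22) and Slc25a13 (-0.13), were then lower, where 53.6% of all genes were, and Otc was the 1 lower between acute and 1 month effects. Nags lost its acute call (0.065). Same-numbered libraries deviated together with correlations of 0.0007 at P10, 0.26 at 1 month and -0.0035, 0.28 and 0.24 in the acute model. With 2 libraries per group in the HKO model the deviations mirror each other, so these values cannot decide whether the numbers mark pairs. In the acute model replicates 2 and 3 correlated best with their own number and replicate 1 did not. Whether same-numbered samples share more than a number is therefore unknown.

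Changes of sign were as follows. Nags at P10 was 0.035 with a pseudocount of 5 TPM, 0.21 without a filter and -0.063 to 0.027 without 1 library, and Slc25a15 -0.071 to 0.38. Otc at 1 month was 0.021 with the 5 TPM filter, 0.025 without mitochondrially encoded genes, 0.0014 with that age alone and -0.22 to 0.17 without 1 library. Acute Arg1 was -0.10 with a pseudocount of 5 TPM, -0.31 without a filter and 0 with all 14 libraries, where it was the median gene. With age Otc was -0.15, -0.37 and, with the 5 TPM filter, -0.016, and -0.10 to 0.17 without 1 library, and Slc25a13 was -0.025 and -0.25. Slc25a13 between 1 month and P10 was -0.11 without a filter and -0.10 to 0.35 without 1 library. Between acute and 1 month effects Cps1 was 0.067 with a pseudocount of 0.1 TPM, 0.072 with median-ratio rescaling, 0.00092 with coding genes, 0.041 without mitochondrially encoded genes, 0.012 with protein-coding transcripts and -0.26 to 0.22 without 1 library. Nags was 0.067, 0.067, 0.013, 0.047, 0.091 and, with the 5 TPM filter, 0.014, and -0.12 to 0.11, and Ass1 was -0.15 without a filter.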
